A study of Rattus norvegicus with 138 samples.

Results

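Potassium channels of the Kv1 and Kv3 families were described through 8 genes chosen by their symbols from the 32883 genes of each deposited table: the Kv1 subunit genes Kcna1, Kcna2, Kcna4 and Kcna6, the Kv beta subunit genes Kcnab1 and Kcnab2, and the Kv3 subunit genes Kcnc1 and Kcnc2. All 8 were kept after genes with low counts were removed in each region, and every library held at least 12 reads of each. The study sequenced RNA from tissue punches of 3 brainstem autonomic nuclei, the nucleus of the solitary tract (NTS), the caudal ventrolateral medulla (CVLM) and the rostral ventrolateral medulla (RVLM), of female spontaneously hypertensive rats (SHRs) and female Wistar-Kyoto (WKY) rats, the normotensive controls. Rats were taken at 5 ages, with 5 WKY rats and 5 SHRs at 8 wk, 4 and 5 at 10 wk, and 3 and 6 at each of 12, 16 and 24 wk. The study considers these ages to run from before the rise in blood pressure (8 wk) through its onset (10 and 12 wk) to established (16 wk) and prolonged (24 wk) hypertension. SHR and WKY are separate inbred lines, so a difference tied to blood pressure and any other difference between the lines cannot be told apart, and a punch holds every cell type and passing fibre within it.

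The libraries, 1 of each region from each of 46 rats, held 5904581 to 17889417 counts (median 10143036). Markers of other tissue and of the nuclei were read in the same libraries. The summed level of 4 choroid plexus markers was over 20 CPM (counts scaled to the size of each library) in 5 NTS and 3 CVLM libraries, all from WKY rats of 8, 10 or 12 wk and reaching 4349 CPM, and at most 14.9 CPM in every other library. Where these libraries are left out below, replicate 1 is the only NTS library kept from WKY rats of 12 wk. Pnmt, the enzyme that makes adrenaline, had medians of 41.9 CPM in the CVLM and 19.7 CPM in the RVLM, and Chat, the acetylcholine-making enzyme of motor neurons, had its highest median, 242.9 CPM, in the RVLM. A number, 1 or 2, ends each library's name in the tables, its meaning is not given in the sources used here, and it was 2 for all 10 wk libraries. Outside 10 wk it was 2 only for 3 of the WKY rats at 8 wk and 1 SHR each at 12 and 24 wk. The CVLM libraries of replicate 5 at 8 wk, 1 of each strain, carry a conflicting age label of 10 wk and were placed by their titles.

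Kv1 channels open at voltages close to rest, hold back repetitive firing and sit mainly along axons and at their terminals, where 4 pore-forming subunits of the same or different kinds join with Kv beta subunits inside the cell. Kv3 channels open only during the action potential and close quickly, which lets a neuron fire at high rates. In blood pressure control the NTS receives the baroreceptor afferents, the CVLM passes on inhibition, and the RVLM drives sympathetic outflow to the heart and vessels.

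In the NTS, Kcna1 and Kcna2, whose products form low-threshold Kv1 channels, often in the same channel, were higher in SHRs than in WKY rats when the strain difference was averaged over the 5 ages, by 1.425-fold and 1.405-fold. At 10 wk the genes that passed as higher in SHRs were Kcna6, a further Kv1 subunit gene, and Kcnab2, by 1.45-fold and 1.78-fold. The product of Kcnab2 helps to carry Kv1 channels into the axon. Kcna1 and Kcna2 were also higher at 10 wk, by 1.60-fold and 1.71-fold, but did not pass at that age. By edgeR's quasi-likelihood test with Benjamini-Hochberg adjustment over all genes of the region (adjusted p under 0.05), 2 of the 8 genes passed in the average over ages, where 11.2% of all 13793 tested genes did, and 2 of 8 passed at 10 wk, where 4.44% of genes did. In bulk tissue, fewer or more cells of a type and less or more RNA per cell cannot be told apart.

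Kcna1 in the NTS was measured in CPM scaled together over all libraries. At 10 wk the 4 WKY rats had 30.5, 38.2, 22.8 and 17.8 CPM and the 5 SHRs had 40.1, 43.8, 41.6, 42.0 and 44.9 CPM. At 12 wk the 3 WKY rats had 37.65, 29.6 and 32.0 CPM, against 39.8 (lowest), 54.9 (median) and 73.1 CPM (highest) in the 6 SHRs. Every SHR was above every WKY rat at both ages. Here and below, how many of all genes separate such small groups in this way was not counted. The groups overlapped at 8 wk (29.3 to 43.25 CPM in WKY rats, 36.2 to 68.9 CPM in SHRs), at 16 wk (29.3 to 38.0 and 35.6 to 54.1 CPM) and at 24 wk (30.4 to 52.0 and 22.5 to 73.0 CPM). The log2 fold change of SHRs over WKY rats was 0.51 (standard error 0.11, adjusted p = 0.00043) over the ages, 0.68 (0.23, adjusted p = 0.077) at 10 wk and 0.74 (0.25, adjusted p = 0.11) at 12 wk, each from the edgeR fit. Of the other settings, the 10 wk value passed only without number-2 libraries outside 10 wk (adjusted p = 0.038, edgeR). Without the libraries that held choroid plexus RNA the average was 0.40 and the values at 10 and 12 wk were 0.52 and 0.50. Of the WKY rats of 12 wk that fit keeps only replicate 1, at 37.65 CPM.

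Kcna2 followed the same order at 10 wk, where the WKY rats had 76.6, 73.7, 62.2 and 46.4 CPM and the SHRs 87.0, 141, 123.5, 78.8 and 105 CPM. The SHR values were all above the WKY values, the lowest SHR only slightly. At 12 wk the WKY rats had 60.6, 49.8 and 43.0 CPM and the SHRs 52.6, 90.3 and 127 CPM (lowest, median and highest), and at 8 wk the WKY rats had 63.55, 54.8, 118.5, 101 and 61.6 CPM and the SHRs 99.4, 78.7, 91.4, 117.5 and 117.7 CPM, so that the groups overlapped. Averaged over ages the log2 fold change was 0.49 (standard error 0.11, adjusted p = 0.0014), with 0.78 (0.24, adjusted p = 0.055) at 10 wk and 0.77 (0.26, adjusted p = 0.12) at 12 wk. The 10 wk value passed by DESeq2 (adjusted p = 0.036). By edgeR it passed with the library-name number as a term (0.029), without number-2 libraries outside 10 wk (0.020) and with a replicate block (0.034). It did not pass under the other settings. Without the libraries holding choroid plexus RNA, which keeps only replicate 1 of the WKY rats of 12 wk, the average fell to 0.36 and did not pass.

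Kcna6 in the NTS had 76.8, 90.6, 78.3 and 82.5 CPM in the WKY rats of 10 wk and 98.7, 129, 138.4, 101 and 108 CPM in the SHRs of that age. No WKY rat of 10 wk reached the lowest SHR, and the WKY values of 10 wk were also below those of most WKY rats of other ages (81.5 to 132 CPM). The log2 fold change at 10 wk was 0.53 (standard error 0.12, adjusted p = 0.0032, edgeR), and it passed at this threshold under each of the 8 other settings and with each of the 46 rats left out in turn, at 0.45 to 0.59. No strain value, Kcna6 included, met a stricter threshold that asked for a 2-fold change. At 12 wk it was 0.28 (0.12, adjusted p = 0.32), and at 8, 16 and 24 wk it was 0.07, -0.04 and -0.07. Averaged over ages it was 0.16 (0.054, adjusted p = 0.054), and 0.10 without the libraries holding choroid plexus RNA.

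Kcnab2 was more scattered. In WKY rats of 10 wk it had 13.0, 21.0, 13.1 and 14.7 CPM, and in SHRs 12.8, 36.1, 39.2, 18.75 and 25.9 CPM. Of the 5 SHRs, 3 were above every WKY rat and 1 was below all of them. The log2 fold change was 0.83 (standard error 0.24, adjusted p = 0.032, edgeR), and it no longer passed without any 1 of 6 rats of 10 wk (WKY replicates 1, 3 and 4 and SHR replicates 2, 3 and 5) (adjusted p up to 0.176, with a value of 0.64 at the lowest), nor under 4 of 8 other settings, which were no filter on low counts (adjusted p = 0.052), a replicate block (0.14), each age fitted alone (0.18) and leaving out the libraries holding choroid plexus RNA (0.81, adjusted p = 0.069). At 12 wk it was 0.44 (0.25, adjusted p = 0.54), at 8 wk 0.16, at 16 wk 0.02 and at 24 wk 0.04.

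**Figure D1:**
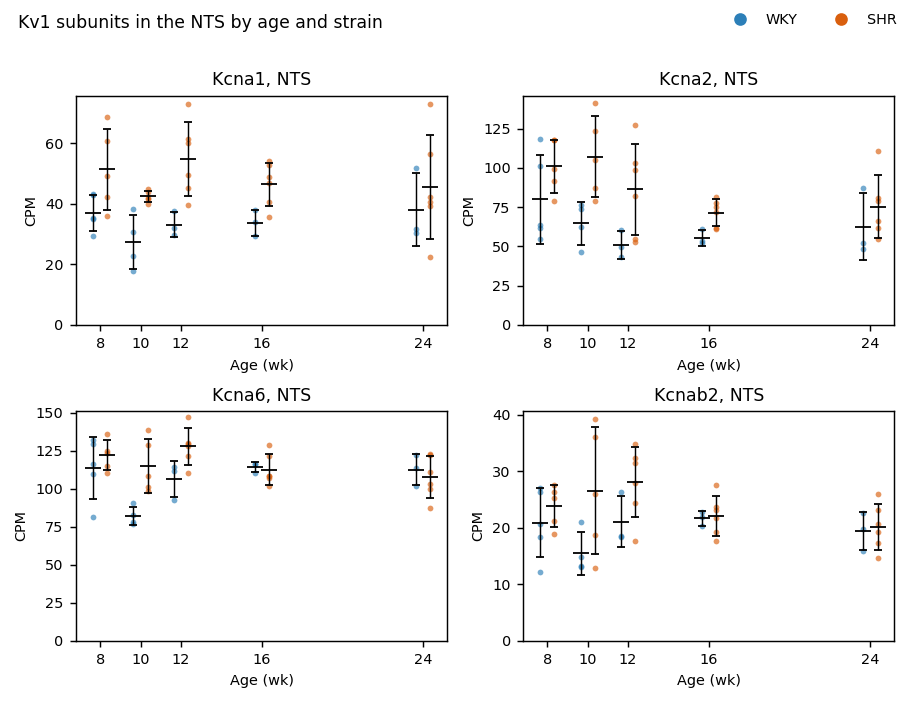
Levels of Kcna1, Kcna2, Kcna6 and Kcnab2 in the NTS (CPM, linear axes from 0) against age in weeks, with 1 point per rat, WKY in blue and SHR in orange, and black bars for the mean and SD of each group of 3 to 6 rats. At 10 wk the SHR points of Kcna1 (40.1 to 44.9 CPM), Kcna2 (78.8 to 141 CPM) and Kcna6 (98.7 to 138.4 CPM) lie above all WKY points of that age, whereas those of Kcnab2 (12.8 to 39.2 CPM) span the WKY range.

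The remaining genes did not pass in the NTS at any age or over the ages. Kcna4, which forms fast-inactivating A-type channels, ran from 7.79 to 14.9 CPM in WKY rats and from 7.43 to 16.2 CPM in SHRs, which averaged -0.17 on the log2 scale (standard error 0.10, adjusted p = 0.32). Kcnab1, whose product speeds the inactivation of Kv1 channels, differed by -0.02 (0.082, adjusted p = 0.95). The Kv3 genes differed by 0.25 (Kcnc1; 0.18, adjusted p = 0.48) and 0.01 (Kcnc2; 0.070, adjusted p = 0.98). None of the 8 genes passed at 8, 12, 16 or 24 wk by edgeR or by DESeq2, where 5.79%, 3.1%, 1.73% and 2.46% of NTS genes did by edgeR. At an unadjusted p under 0.05 (edgeR) the numbers were 0, 3, 0 and 0, beside 3253, 1623, 901 and 1804 of all 13793 genes. At 10 wk DESeq2 also called Kcna2 (0.75, adjusted p = 0.036), and over the ages it also called Kcna6 (0.15, adjusted p = 0.039). The median log2 fold change of the 8 genes in the NTS took the values -0.04, 0.42, 0.33, 0.06 and -0.02 over the 5 ages in order, beside -0.03, 0.02, 0.03, -0.0024 and 0.01 for all tested genes. In the CVLM it lay between -0.03 and 0.18 over the 5 ages, and in the RVLM between 0.06 (12 wk) and 0.35 (24 wk).

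The promoters of Kcna2, which passed over the ages, and of Kcna6 and Kcnab2, which passed at 10 wk, are given to show how far these genes differ in the sequence before their starts. They are the 250 bases before the annotated start in RefSeq (build GRCr8, a later build than that of the counts), 5′ to 3′ on the gene's strand, with each CG dinucleotide in capitals. RefSeq promoters were found for 7 of the 8 genes, all but Kcna1.
Kcna2, chr2:197393280-197393529, plus strand: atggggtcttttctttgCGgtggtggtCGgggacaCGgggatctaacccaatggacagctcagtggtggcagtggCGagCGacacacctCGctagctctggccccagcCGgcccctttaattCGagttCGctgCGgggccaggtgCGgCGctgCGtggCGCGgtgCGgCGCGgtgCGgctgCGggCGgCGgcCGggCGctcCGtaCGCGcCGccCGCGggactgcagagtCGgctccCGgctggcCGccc
Kcna6, chr4:161262353-161262602, minus strand: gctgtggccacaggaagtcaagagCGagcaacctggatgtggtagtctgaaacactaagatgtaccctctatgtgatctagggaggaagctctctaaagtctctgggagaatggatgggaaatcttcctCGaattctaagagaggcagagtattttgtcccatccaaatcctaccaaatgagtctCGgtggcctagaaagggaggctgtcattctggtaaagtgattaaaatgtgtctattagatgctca
Kcnab2, chr5:168270761-168271010, minus strand: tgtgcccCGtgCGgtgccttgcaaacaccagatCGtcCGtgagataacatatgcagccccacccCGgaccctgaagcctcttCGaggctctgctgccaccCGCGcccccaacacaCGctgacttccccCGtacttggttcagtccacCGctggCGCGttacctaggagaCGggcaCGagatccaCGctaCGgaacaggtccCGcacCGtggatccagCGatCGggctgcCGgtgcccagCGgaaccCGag
The Kcna2 promoter held 33 CG dinucleotides and 72.4% G or C, and the Kcnab2 promoter held 24 and 65.2%. Only 3 CG were in the Kcna6 window, at 45.6% G or C, and the median over all 33469 RefSeq promoters of this length was 5. The letters GGGCGG, searched on both strands, occurred 3 times in the Kcna2 window and in neither of the others, and 30.5% of all promoters held them. TATAAA (12.9% of promoters) and TGACGTCA (1.59%) were in none of these 3 windows. These are descriptions of letters, not of bound factors. In RefSeq order Kcna1 lies between Kcna5 and Kcna6 on chromosome 4, and Kcna2 lies between Kcna3 and Kcna10 on chromosome 2, so that Kcna1 and Kcna6 are direct neighbours.

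In the CVLM the same Kv1 genes, Kcna1 and Kcna2, were higher in SHRs on average over the ages, but by less, 1.17-fold and 1.22-fold, and Kcna1 was higher at 8 wk, by 1.35-fold. Of 6 oligodendrocyte markers, 4 (Mog, Mbp, Cnp and Mobp) were lower in SHRs over the ages in the CVLM, and their part in the Kv1 differences was not tested. Kcna1 and Kcna2 were 2 of 8 genes over the ages, where 12.3% of the 13408 tested genes passed, and 1 of 8 at 8 wk, where 7.64% did. At 10, 12, 16 and 24 wk 3.18%, 2.62%, 2.27% and 7.13% of CVLM genes passed by edgeR, and none of the 8 genes did by edgeR or by DESeq2. At an unadjusted p under 0.05 (edgeR) 2, 0, 0 and 1 of the 8 passed, beside 1332, 1426, 991 and 3029 of all 13408 genes.

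Kcna1 at 8 wk had 71.4, 61.7, 55.0, 47.9 and 61.6 CPM in WKY rats and 52.1, 101.2, 66.9, 101.9 and 81.0 CPM in SHRs. The groups overlapped, with 3 SHRs above all WKY rats, and the difference of 0.44 on the log2 scale (standard error 0.14, adjusted p = 0.047, edgeR) did not pass under 7 of 9 other settings or with 27 of 46 rats left out in turn. It was 0.29 (adjusted p = 0.98) without the libraries of number 2, which at 8 wk are 3 WKY rats and no SHR, and 0.45 (adjusted p = 0.10) without the libraries of conflicting age. At 10 wk the WKY rats had 60.3, 61.2, 67.6 and 63.1 CPM and the SHRs 85.7, 84.0, 80.9, 79.7 and 71.6 CPM. Those groups did not overlap, and the log2 fold change was 0.35 (0.15, adjusted p = 0.32). Over the ages it was 0.22 (0.068, adjusted p = 0.022), and 0.20 (adjusted p = 0.054) without WKY replicate 1 of 12 wk.

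The CVLM level of Kcna2 at 10 wk was 141.5, 140.1, 130.8 and 167 CPM in WKY rats and 173, 187, 194, 233 and 156 CPM in SHRs, with only the lowest SHR inside the WKY range. The log2 fold change was between 0.21 and 0.39 at each of the 5 ages. Its average was 0.28 (standard error 0.087, adjusted p = 0.022, edgeR), 0.23 (adjusted p = 0.06) without WKY replicate 1 of 12 wk, which at 62.3 CPM was the lowest of all CVLM libraries, 0.29 (adjusted p = 0.053) without the libraries of number 2 outside 10 wk, and 0.31 (adjusted p = 0.0066) without those holding choroid plexus RNA.

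Kcna4 and Kcnab1, the genes of the inactivating subunits, were on the other side at 8 wk, though neither passed. Kcna4 had 11.55, 11.7, 11.3, 12.2 and 13.5 CPM in WKY rats of 8 wk and 9.28, 9.52, 8.88, 6.35 and 9.36 CPM in SHRs, all of them below every WKY rat, which gave -0.47 on the log2 scale (standard error 0.20, adjusted p = 0.16, edgeR). Kcnab1 had 193, 130.5, 250, 239 and 189 CPM in WKY rats and 175.5, 137, 147, 128.5 and 140.2 CPM in SHRs, and 4 of the 5 WKY rats were above all SHRs. Its log2 fold change was -0.46 (0.16, adjusted p = 0.068), which passed without the libraries holding choroid plexus RNA (-0.57, adjusted p = 0.012) and shrank to -0.12 (adjusted p = 1) without those of number 2. At 24 wk Kcnab2 had 24.5, 21.4 and 18.4 CPM in WKY rats and 24.55, 29.7 and 38.5 CPM (lowest, median and highest) in SHRs. The lowest SHR was barely above the highest WKY rat, at a log2 fold change of 0.47 (0.21, adjusted p = 0.16). Kcna6, Kcnc1 and Kcnc2 averaged 0.03, 0.06 and -0.0042 over the ages in the CVLM.

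**Figure D2:**
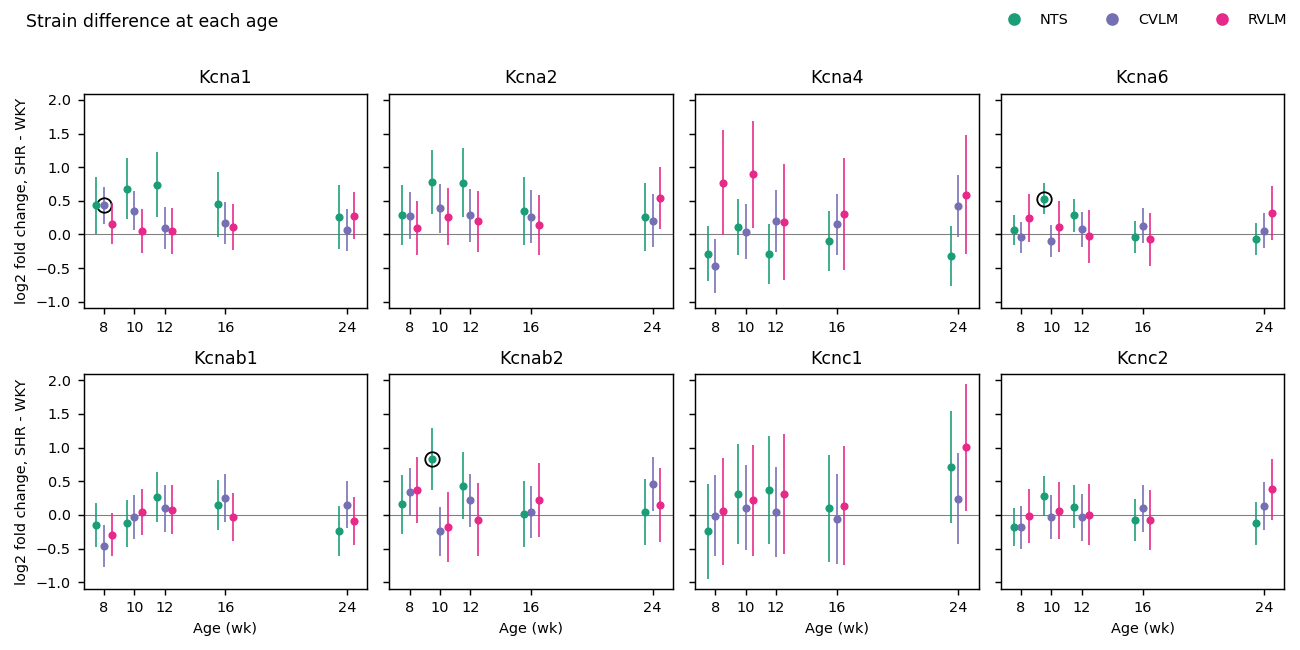
Log2 fold change of SHRs over WKY rats for each gene against age in weeks, in the NTS (green), CVLM (purple) and RVLM (pink), with points for the edgeR estimate, bars for its 95% interval and rings around the 3 of 120 values with an adjusted p under 0.05. The ringed values are Kcna6 (0.53) and Kcnab2 (0.83) in the NTS at 10 wk and Kcna1 (0.44) in the CVLM at 8 wk, and the widest bars are those of Kcnc1 and of Kcna4 in the RVLM.

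In the RVLM none of the 8 genes passed at any single age, where 9.78% (8 wk), 2.3% (10 wk), 1.7% (12 wk), 1.65% (16 wk) and 2.24% (24 wk) of the 13411 tested genes did, nor over the ages, where 10.8% did. DESeq2 called none at single ages and Kcna4 over the ages (adjusted p = 0.032). At an unadjusted p under 0.05 edgeR gave 0, 1, 0, 0 and 2 of the 8 genes at the 5 ages, beside 3704, 1045, 864, 742 and 2005 of all genes. Over the ages it gave 2 of the 8, beside 2862 of all genes. The gene nearest the threshold was Kcna4, with 3.885, 3.01, 2.37, 2.38 and 3.19 CPM in WKY rats of 8 wk and 2.64, 6.98, 6.38, 6.18 and 3.26 CPM in SHRs. At 10 wk the WKY rats had 6.40, 2.10, 2.65 and 2.50 CPM and the SHRs 4.135, 10.15, 8.67, 3.07 and 5.77 CPM. At each of these ages 3 or fewer SHRs stood above all WKY rats and the groups overlapped. Averaged over ages the log2 fold change was 0.55 (standard error 0.19, adjusted p = 0.057, edgeR), and 0.65 (adjusted p = 0.016) without the WKY rat with 6.40 CPM. These are low levels, resting on as few as 12 reads in a library.

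Kcna2 in the RVLM averaged 0.25 (standard error 0.10, adjusted p = 0.12), with 97.5, 92.9 and 113 CPM in WKY rats of 24 wk and 108, 137.5 and 219.9 CPM (lowest, median and highest) in the SHRs. It passed only when the library-name number was a term in the fit (0.27, adjusted p = 0.0295). Kcnc1, the gene of a fast Kv3 subunit, had 8.89, 18.95 and 8.73 CPM in WKY rats of 24 wk and 12.0, 24.5 and 35.01 CPM in SHRs, at a log2 fold change of 1.00 with a wide error (0.48, adjusted p = 0.32). The groups overlapped. Kcna1 averaged 0.13 (0.076, adjusted p = 0.33), Kcna6 0.11, Kcnab1 -0.06, Kcnab2 0.10 and Kcnc2 0.07.

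**Figure D3:**
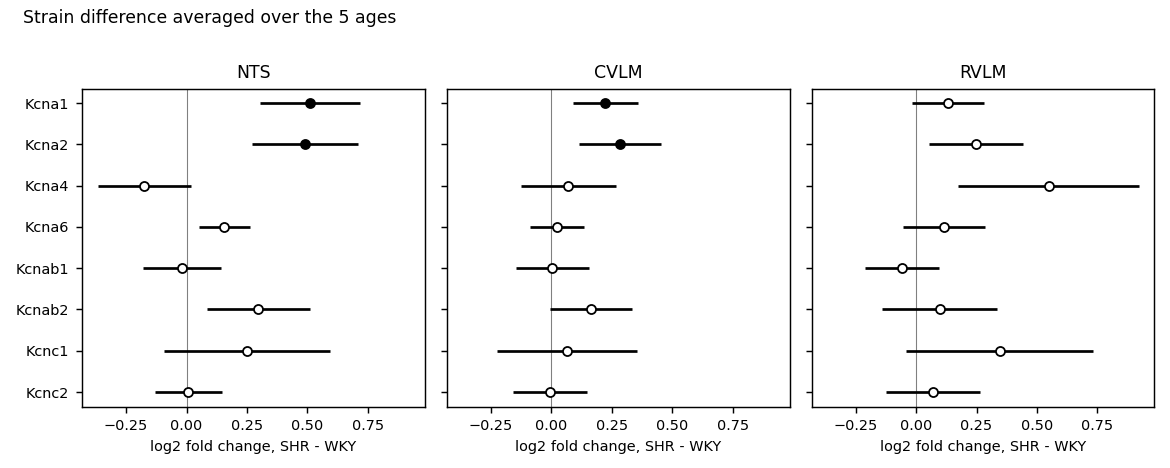
Log2 fold change of SHRs over WKY rats averaged over the 5 ages for the 8 genes, with 1 panel per region, points for the edgeR estimate and bars for its 95% interval, filled where the adjusted p was under 0.05. Kcna1 and Kcna2 are filled in the NTS (0.51 and 0.49) and in the CVLM (0.22 and 0.28), and in the RVLM the point farthest to the right is the open one of Kcna4 (0.55).

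Whether the strain difference itself changed with age was tested separately. None of the 8 genes passed a test of strain by age in any region, where 0.0145% (NTS), 0.0224% (CVLM) and 0.00746% (RVLM) of all genes did. At an unadjusted p under 0.05 (edgeR) the NTS and CVLM had 1 of the 8 genes each and the RVLM 0, beside 1677, 1612 and 762 of all genes, and DESeq2 called 0. A single contrast of the strain difference at 10 and 12 wk against that at the other ages also called none of the 8 genes, and 0% of all genes in each region by edgeR, with DESeq2 at 0 of the 8. Unadjusted, 4 of the 8 passed in the NTS (beside 1665 of 13793 genes), and 0 in the CVLM (982 of 13408) and RVLM (581 of 13411). Those 4 were Kcna6, at 0.42 (standard error 0.11, adjusted p = 0.17), Kcnab2, at 0.56 (0.22, adjusted p = 0.3), Kcna2, at 0.47 (0.22, adjusted p = 0.40), and Kcnc2, at 0.33 (0.14, adjusted p = 0.35), all larger at 10 and 12 wk. Thus the larger NTS values at 10 and 12 wk were not shown to differ from those at other ages. From these same libraries, the study had described Kv1 genes as raised in the NTS of SHRs around the onset of hypertension. The genes and the single contrast were chosen with that account known. The unadjusted passes in the NTS are therefore not independent of it, and their share beside all genes is a description only.

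The strain difference was next compared between regions of the same rats, in 1 edgeR fit over all libraries with the rat as a block. Of the 8 genes, 2 passed for the NTS against the RVLM, where 1.82% of 14043 genes did, and none for the NTS against the CVLM (0.449%) or the CVLM against the RVLM (0.32%). At an unadjusted p under 0.05 the last 2 comparisons had 1 and 1 of the 8, beside 1052 and 728 of all genes. Kcna1 had a strain difference larger in the NTS than in the RVLM by 0.36 on the log2 scale (standard error 0.10, adjusted p = 0.043). For Kcna4 the strain difference in the NTS minus that in the RVLM was -0.69 (0.19, adjusted p = 0.035), while the strain difference passed in neither region alone (-0.17 and 0.55). Neither passed without the libraries holding choroid plexus RNA (0.30, adjusted p = 0.34, and -0.71, adjusted p = 0.15) or when all genes with a count were tested (adjusted p = 0.064 and 0.055). At 10 wk alone the difference for the NTS against the CVLM was 0.57 (0.17, adjusted p = 0.17) for Kcna6 and 0.98 (0.28, adjusted p = 0.16) for Kcnab2.

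Comparisons between regions passed more often than those between strains, for these genes and for all genes alike. In the same fit, 42 of 48 comparisons of 2 regions passed. In WKY rats 7 of 8 genes differed between NTS and CVLM (52.5% of all genes), 7 between NTS and RVLM (62.2%) and 8 between CVLM and RVLM (39%). In SHRs the numbers were 7 (55.7%), 7 (64.4%) and 6 (44.8%). The background is itself large, so that the count over the 8 genes is a description of them and no more.

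Kcna1 and Kcna2, the low-threshold pair, were lowest in the NTS. Kcna1 had medians of 33.0, 69.5 and 86.5 CPM in the NTS, CVLM and RVLM of WKY rats and 45.1, 84.9 and 90.9 CPM in SHRs. In all 18 WKY rats and all 28 SHRs the NTS was below both other regions, at log2 differences of -1.18 and -1.40 in WKY rats (standard errors 0.082 and 0.083) and -0.89 and -1.03 in SHRs (0.064 for both). Its CVLM and RVLM levels were close, at -0.22 (adjusted p = 0.022) in WKY rats and -0.14 (adjusted p = 0.056) in SHRs for the CVLM minus the RVLM. Kcna2 instead was highest in the CVLM, with WKY medians of 60.9, 132 and 105.5 CPM and SHR medians of 81.1, 157.5 and 120.6 CPM in the 3 regions. Its NTS level was below that of the CVLM in all 46 rats, and below that of the RVLM in all WKY rats and in all but 3 SHRs.

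Kcna4 had the opposite order. Its medians fell from 12.3 CPM in the NTS through 8.845 CPM in the CVLM to 3.85 CPM in the RVLM of WKY rats, and from 10.1 through 9.09 to 6.215 CPM in SHRs. The NTS was above the RVLM in all 18 WKY rats and in 26 of 28 SHRs, at log2 differences of 1.56 (standard error 0.15) and 0.87 (0.12). Kcna6 was the gene that differed least between regions, with medians of 93.7 to 118 CPM in the 6 combinations of region and strain. Only its CVLM level passed against the RVLM, in WKY rats (0.16, adjusted p = 0.029), and not without the libraries of conflicting age (adjusted p = 0.059) or those holding choroid plexus RNA (adjusted p = 0.14).

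The beta subunit genes were highest in the RVLM. Kcnab1 had medians of 144, 162 and 343 CPM in the NTS, CVLM and RVLM of WKY rats and 139, 158 and 340.4 CPM in SHRs, and each of the 46 rats had more in its RVLM than in its NTS or CVLM. The NTS minus RVLM difference was -1.35 (standard error 0.076) in WKY rats and -1.31 (0.060) in SHRs on the log2 scale. The smaller NTS minus CVLM difference of -0.22 in WKY rats did not pass without the libraries holding choroid plexus RNA (-0.15, adjusted p = 0.18). Kcnab2 rose more gently in the same order, from 19.99 and 23.4 CPM in the NTS to 35.4 and 39.9 CPM in the RVLM (WKY and SHR medians), and all but 1 WKY rat and 1 SHR had less in the NTS than in the RVLM.

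Of the Kv3 genes, Kcnc1 was highest in the CVLM and lowest in the RVLM, with WKY medians of 34.9, 49.15 and 22.4 CPM and SHR medians of 43.2, 50.6 and 24.4 CPM in the NTS, CVLM and RVLM. The CVLM was above the RVLM by 1.18 (standard error 0.17) in WKY rats and 0.95 (0.13) in SHRs on the log2 scale, in 17 of 18 and 22 of 28 rats. Kcnc1 varied widely between rats, with a coefficient of variation of 31.1% to 47.9% within region and strain. Kcnc2, a Kv3 gene known from inhibitory interneurons, was highest in the NTS at medians of 55.55 and 53.65 CPM and lowest in the RVLM at 32.6 and 32.5 CPM, with the NTS value above the RVLM value in all 18 WKY rats and 27 of 28 SHRs (0.75 and 0.69, standard errors 0.0765 and 0.060).

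Cell type markers differed between the regions as well. The summed level of 6 oligodendrocyte markers had medians of 25890, 55200 and 46350 CPM in the NTS, CVLM and RVLM of WKY rats, that of 8 neuronal markers 7788, 11910 and 29360 CPM, and that of 5 inhibitory neuron markers 723.8, 680.1 and 278.4 CPM. The corresponding SHR medians were 27060, 48540 and 43920 CPM, 7572, 11140 and 24870 CPM, and 673.7, 616.9 and 352 CPM. All 6, 8 and 5 markers were detected, but not every marker of a list moved with its sum. In WKY rats 3 of the 8 neuronal markers passed as higher and 5 as lower in the CVLM than in the RVLM (2 and 5 in SHRs). Of the 5 inhibitory markers 2 passed as higher and 2 as lower in the NTS than in the CVLM of WKY rats (2 and 3 in SHRs). The part of the markers in the differences between regions or strains was not tested. In the NTS at 10 wk the neuronal sum was 6361 to 9671 CPM in WKY rats and 6752 to 8984 CPM in SHRs, and the oligodendrocyte sum 24770 to 43210 and 26120 to 40620 CPM, so that the groups overlapped. The inhibitory sum did not overlap there, at 871.8 to 947.2 CPM in WKY rats and 625.7 to 857.4 CPM in SHRs, nor did that of 5 microglia markers, at 198 to 218.4 and 185.6 to 190.5 CPM. Of the 5 inhibitory markers only 1, Gad1, passed there, lower in SHRs, and the median log2 fold change of the 5 was 0.03. Of the microglia markers 0 passed, at a median of -0.15. How often other genes or sums fail to overlap was not counted.

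**Figure D4:**
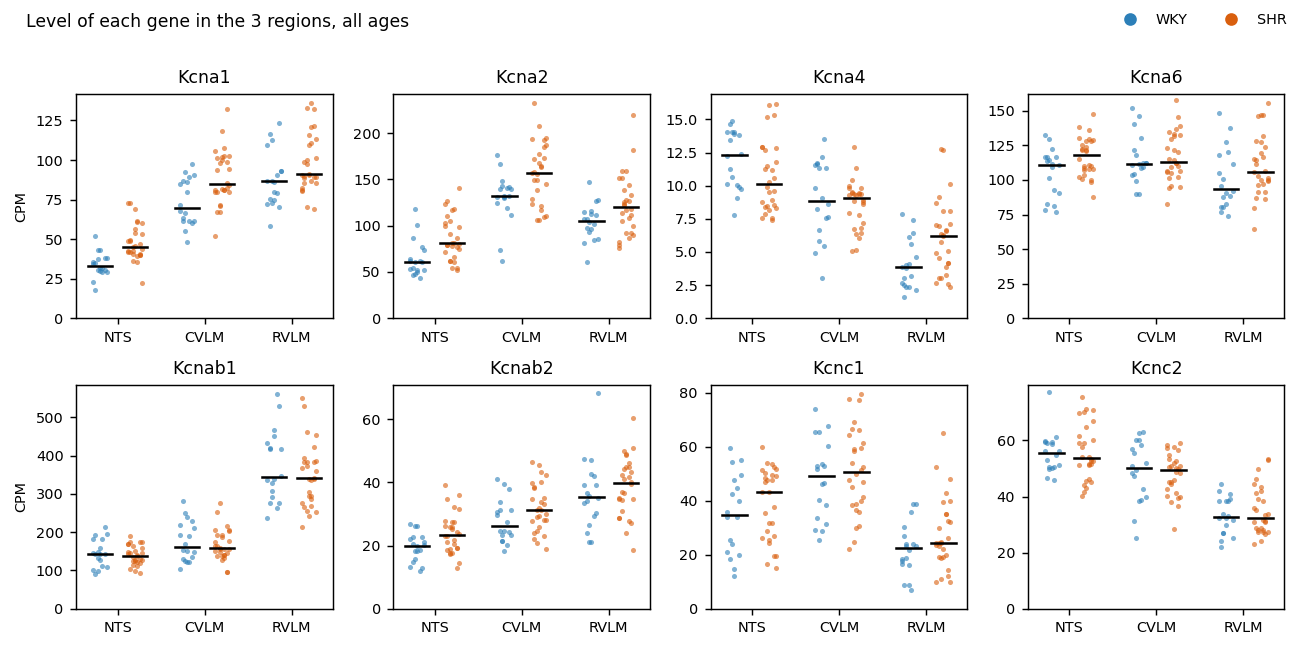
Levels of the 8 genes (CPM, linear axes from 0) in the NTS, CVLM and RVLM, with 1 point per library over all ages, WKY in blue (18 rats) and SHR in orange (28 rats), and black bars for medians. Kcna1 and Kcna2 are lowest in the NTS, Kcna4 and Kcnc2 fall toward the RVLM, Kcnab1 is highest in the RVLM (medians 343 and 340.4 CPM) and Kcna6 stays level.

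Changes with age within a strain were tested over the 5 ages together. In all, 7 of 48 tests passed, 4 in WKY rats and 3 in SHRs. In the CVLM these were Kcna1, Kcna4 and Kcnab1 in WKY rats (22.2% of all genes passed) and Kcnab1 and Kcnab2 in SHRs (20%). In the NTS it was Kcna6 in WKY rats (12.5%) and no gene in SHRs (18.7%), and in the RVLM no gene in WKY rats (6.79%) and Kcnab1 in SHRs (14.1%). By edgeR at an unadjusted p under 0.05, 1 gene passed in the NTS of SHRs and 1, Kcnab1, in the RVLM of WKY rats, and of these DESeq2 called the latter (adjusted p = 0.047). None of the 7 passed with the library-name number as a term in the fit, and since all 10 wk libraries carry the number 2, the age of 10 wk and that number cannot be told apart.

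Kcnab1 had its highest mean at 10 wk in every region and strain. In the CVLM of WKY rats it had 230.1, 212, 219.6 and 283 CPM at 10 wk, against 125.5, 152 and 121 CPM at 12 wk (adjusted p = 0.0016 over the ages, edgeR). In the CVLM of SHRs it went from 175.5, 137, 147, 128.5 and 140.2 CPM at 8 wk to 217, 202, 205, 252 and 275 CPM at 10 wk and back to 95.8, 145 and 177 CPM (lowest, median and highest) at 12 wk (adjusted p = 0.0039). No CVLM library of 12 or 16 wk reached the lowest of 10 wk in either strain, but WKY rats of 8 wk (130.5 to 250 CPM) and SHRs of 24 wk (133 to 205 CPM) overlapped those of 10 wk. The summed level of the 8 neuronal markers was also highest in the CVLM at 10 wk, at 13430 to 15530 CPM in WKY rats and 13860 to 14680 CPM in SHRs, above every CVLM library of another age (at most 13370 and 12450 CPM), and its part in the age differences was not tested. In the RVLM of SHRs the means were 317 ± 59.8 CPM at 8 wk (SD, n = 5), 465 ± 78.0 CPM at 10 wk (SD, n = 5), 319 ± 65.2 CPM at 12 wk (SD, n = 6), 282 ± 33.4 CPM at 16 wk (SD, n = 6) and 375 ± 53.8 CPM at 24 wk (SD, n = 6) (adjusted p = 0.0093).

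The CVLM of WKY rats also showed a rise of Kcna1 and a fall of Kcna4 over the ages tested. Kcna1 went from 71.4, 61.7, 55.0, 47.9 and 61.6 CPM at 8 wk to 97.7, 90.2 and 84.8 CPM at 16 wk and 86.95, 92.4 and 79.9 CPM at 24 wk, with all late values above all early ones (adjusted p = 0.0051, edgeR). Kcna4 went the other way, from 11.3 to 13.5 CPM at 8 wk to 8.28, 6.68 and 3.05 CPM at 24 wk (adjusted p = 0.0069). In SHRs the same 2 genes did not pass (adjusted p = 0.135 and 0.38), and whether the age course differed between strains is the strain by age test above, which neither passed. Kcnab2 in the CVLM of SHRs was lowest at 10 wk, at 22.9, 18.9, 27.8, 24.0 and 20.8 CPM, against 40.0, 38.2, 31.4, 29.35 and 40.1 CPM at 8 wk (adjusted p = 0.031), and it did not pass without any 1 of 5 single SHRs, 1 of 8 wk and 4 of 10 wk (adjusted p up to 0.089). Kcna6 in the NTS of WKY rats had its lowest mean at 10 wk, 82.1 ± 6.21 CPM (SD, n = 4), and 106 to 114 CPM at the other ages (adjusted p = 0.024), and it did not pass without any 1 of 3 of those 4 rats (adjusted p up to 0.099).

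**Figure D5:**
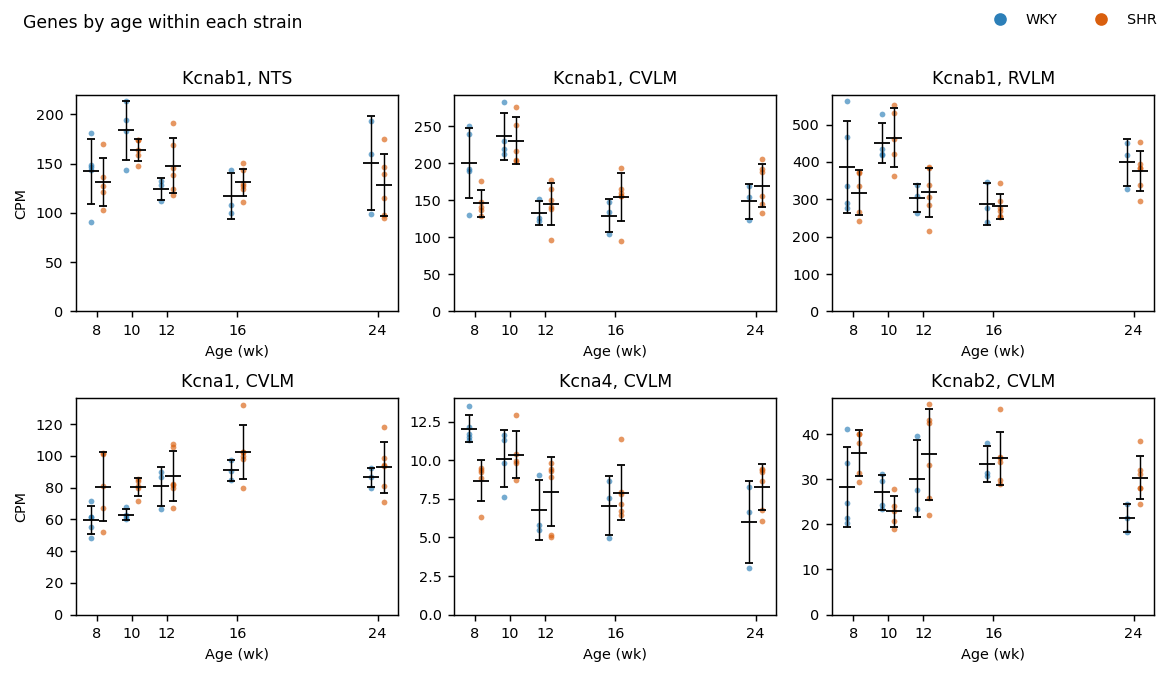
Levels (CPM, linear axes from 0) of Kcnab1 in the 3 regions and of Kcna1, Kcna4 and Kcnab2 in the CVLM against age in weeks, with 1 point per rat, WKY in blue and SHR in orange, and black bars for the mean and SD of each group of 3 to 6 rats. Kcnab1 has its highest group mean at 10 wk in each panel (points in the CVLM 212 to 283 CPM in WKY rats and 202 to 275 CPM in SHRs), and in WKY rats Kcna1 is higher and Kcna4 lower at 16 and 24 wk than at 8 wk.

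Likeness of pattern was measured as Pearson's r of log2 CPM over the 30 group means of region, strain and age, points that share libraries and depth within a group. Among the members Kcna4 and Kcnc2 were most alike (r = 0.92), followed by Kcna1 and Kcnab2 (0.85) and by Kcna1 and Kcna2 (0.76). Among 13108 other genes the nearest to Kcna1 were Cplx1 (0.963) and Lynx1 (0.958), to Kcna2 Ano3 (0.944) and Scn1a (0.938), and to Kcnab1 Mindy3 (0.969) and Gas2 (0.968). The genes nearest to Kcna4 were Gfra2 (0.952) and Gad2 (0.952), and Gad2 (0.955) was also near to Kcnc2, after Cnr1 (0.957). Kcnab2 was nearest to Klc2 (0.944) and Abca7 (0.931), and Kcnc1 to Pde1b (0.942) and Rab15 (0.939). Kcna6, whose level varied least between regions, had the weakest neighbours, Capn15 (0.807) and Mast3 (0.799). All these r include the differences between regions. Taken on deviations from the group means within the NTS, CVLM and RVLM, r was 0.57, 0.36 and 0.68 for Kcna4 and Kcnc2. It was 0.47, 0.37 and 0.51 for Kcna1 and Kcnab2, and 0.60, 0.475 and 0.24 for Kcna1 and Kcna2.

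Other genes of the families and of proteins that hold Kv1 channels in place were counted from lists. Of 7 further Kv1, Kv beta and Kv3 genes, 5 were tested in the NTS and 4 in each of the other regions. Over the ages 1 was higher in SHRs in the NTS and 1 in the RVLM, and none in the CVLM, where 11.2%, 10.8% and 12.3% of all genes passed. Both were Kcnab3, the remaining Kv beta gene, at 0.42 (standard error 0.10, adjusted p = 0.0042, edgeR) in the NTS and 0.39 (0.11, adjusted p = 0.013) in the RVLM, where it was also higher at 8 wk (0.74, adjusted p = 0.032). Of 9 genes of scaffold, adhesion and secreted partners of Kv1 channels, 8 were tested. Over the ages 1 of them, Dlg2, which encodes a scaffold of the postsynaptic density, was higher in SHRs in the CVLM (0.30, adjusted p = 0.019), where 12.3% of all genes passed. At 8 wk Cntn2, an axonal adhesion gene, was higher in the RVLM (0.71, adjusted p = 0.035), where 9.78% of genes passed. A count of 1 in 8 is near these shares, and it describes these genes and no more. Between NTS and RVLM all 8 partner genes passed in both strains, 2 higher and 6 lower in the NTS, and all 5 family genes did, 4 higher and 1 lower, where 62.2% (WKY) and 64.4% (SHR) of all genes passed.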

How the data were processed

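Total RNA from NTS, CVLM and RVLM punches of 46 female rats gave 1 library each. The authors mapped paired-end reads to the rat genome (rn6) with STAR inside RSEM and deposited a table of expected counts per Ensembl gene for each region. The expected counts were not normalized, and not all were whole (5.02% were not for the NTS, 4.95% for the CVLM and 4.88% for the RVLM). Whether the authors' batch adjustment had been applied to the deposited counts is not given in the sources used here. Groups came from the sample labels.

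The counts were rounded, genes with a highest DESeq2 rlog value under 3.5 in a region were removed, and edgeR (version 4.0.16, in R 4.3.3) was fitted per region to the 46 libraries with 1 group per strain and age, using TMM scaling and the robust quasi-likelihood F test. The Benjamini-Hochberg adjustment ran over every gene kept, and an adjusted p under 0.05 passed. Standard errors were the log2 fold change over the square root of F, and intervals were 1.96 standard errors either side (95%). Regions were compared in 1 edgeR fit of 14043 genes over all libraries with the rat as a block, and CPM were scaled in that fit. The libraries held 5904581 to 17889417 counts, and the rats are the replicates. The alternatives were DESeq2 (version 1.42.0), another scaling, no filter, a stricter threshold, a replicate block, each age alone, the library-name number as a term, and libraries or single rats left out. Leaving out libraries with choroid plexus RNA was chosen after seeing the data. The scripts were tested on simulated data. The 8 genes and the gene lists were chosen with earlier results of these data known. Named genes were the 8 members, the listed genes that passed, and per member the 2 genes with the highest r.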

Additional observations from a re-analysis of the deposited data

Results flagged for a closer look

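In groups of 4 to 6 rats, the highest or lowest rat stood apart from the others of its group by Dixon's ratio in 12 of 168 groups (7.14%), and chance gives about 1 in 20. The 12 values came from 9 libraries. In the RVLM they were Kcna1 in WKY replicate 1 of 8 wk (109.7 CPM) and SHR replicate 2 of 12 wk (135.8 CPM), Kcna6 in the same SHR library (146.8 CPM), Kcna4 (6.397 CPM) and Kcnab1 (528.7 CPM) in WKY replicate 1 of 10 wk, and Kcnab2 in SHR replicate 2 of 10 wk (60.34 CPM). In the CVLM they were Kcna4 in SHR replicate 4 of 8 wk (6.35 CPM), Kcna4 (11.36 CPM) and Kcnab2 (45.57 CPM) in SHR replicate 2 of 16 wk, Kcnc1 in SHR replicate 1 of 10 wk (39.81 CPM), and Kcnc2 in WKY replicate 2 of 8 wk (31.34 CPM), a library with choroid plexus RNA. In the NTS it was Kcna4 in SHR replicate 6 of 24 wk (16.19 CPM), a library of the number 2.

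The strain difference differed between the NTS and the RVLM for Kcna1 (0.36) and Kcna4 (-0.69), by the edgeR test of that difference with the rat as a block. Neither passed with no filter on low counts, and Kcna1 did not pass without the rat as a block. The strain difference of Kcna4 passed in neither region alone.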

How the results depend on the processing

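No value named as passing changed direction under any alternative run. Of the 120 strain values by age, 3 passed, and 1 did with no filter on low counts and 0 at an adjusted p of at most 0.01 with a 2-fold change. Of the 24 averages over ages, 4 passed, and 0 did under that stricter threshold and 2 with a replicate block. The 7 of 48 tests of age became 0 with the library-name number as a term and 12 when number-2 libraries of other ages than 10 wk were left out. The 42 of 48 region comparisons became 10 under the stricter threshold. The 2 of 24 strain differences between regions became 0 with no filter, 0 without the libraries holding choroid plexus RNA and 1 with no replicate block (the rat left out of the fit). The cause of these changes was not tested.

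With each of the 46 rats left out in turn, 1 to 5 values by age passed, 3 to 7 averages over ages, 6 to 8 tests of age, and 0 to 0 of both tests of the strain difference between ages. The 5 came without WKY replicate 2 of 8 wk, and the 7 without SHR replicate 1 or 4 of 10 wk. The 1 came without WKY replicate 1, 3 or 4 or SHR replicate 3 or 5 of 10 wk. Leaving out rats was not run for comparisons between regions.

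By their labels, same-numbered WKY rats and SHRs of an age have only the number in common. Whether they were handled together is not given in the sources used here. Their deviations from group means correlated above 0.1 in 32 of 54 pairs (-0.337 to 0.569), and 21 of 54 libraries correlated best with their own number. How many would do so by chance was not worked out. With this block the averages of Kcna1 and Kcna2 in the CVLM (adjusted p = 0.083 and 0.056), Kcnab2 in the NTS at 10 wk (0.14) and Kcna1 in the CVLM at 8 wk (0.086) did not pass, and Kcna2 in the NTS at 10 wk (0.034) and Kcnab1 in the CVLM at 8 wk (0.024) did. The lowest count of any of the 8 genes in a library was 12, for Kcna4 in the RVLM.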
